A study of Arabidopsis thaliana with 18 samples.

Results

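The mitochondrially encoded genes of the series are the 146 rows, of 33602 in the expression table, whose locus identifier begins with ATMG, the prefix of the Arabidopsis mitochondrial genome. Of these, 47 stood above 0 in at least 9 of the 18 libraries and are described here, 59 stood above 0 in 1 to 8 libraries, and 40 were listed at 0 in every library. Captured mitochondrial transcripts were rare and stood higher in warm seedlings: their summed FPKM (fragments per kilobase of gene, scaled to the size of the library) lay between 25.7 and 49.4 in the 9 libraries at 22 °C and between 78.0 and 129.5 in the 9 at 29 °C. The subunit 9 row of the ATP synthase, ATMG01080, had the largest change on the log2(FPKM + 1) scale among the rows tested, and the row with the highest level at 22 °C, ATMG00020, did not pass the test. Neither mutant had a member that passed the test against the wild type.

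The mitochondrial genome of plants encodes a small set of respiratory chain and ATP synthase subunits, proteins that attach haem to cytochrome c, some ribosomal proteins, ribosomal and transfer RNAs, and many open reading frames of unknown role. Most other subunits of these complexes are encoded in the nucleus and imported. In plant mitochondria a poly(A) tail marks an RNA for degradation rather than for stability, and the TruSeq RNA kit selects RNA by that tail, so the levels are those of the transcripts captured and not of all mitochondrial RNA. The Columbia strain also carries a long copy of the mitochondrial genome in chromosome 2, near the centromere.

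The libraries came from Columbia seedlings at day 7, grown at 22 °C or 29 °C. The 3 genotypes were the wild type, a double mutant labelled BBX18-/-BBX23-/- (called the double mutant or bbx18 bbx23 here), and a mutant labelled PIF4-/- (called pif4). BBX18 and BBX23 belong to the B-box zinc finger family, and PIF4 is a transcription factor of warm-induced hypocotyl growth. Each genotype and temperature had 3 replicates, the controls carried no other labelled allele, and the labels name no allele. The labels do not say whether replicates came from separate plantings, so p-values measure the spread between these samples, which may be technical. Values of replicates are given in the order 1, 2 and 3.

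A library held 17791 to 18367 genes at or above 1 FPKM, and the summed FPKM of all rows ran from 744698 to 1162160, lower on average at 29 °C (844170 ± 76235, SD, n = 9) than at 22 °C (1077606 ± 80872). The read number behind a value is not given, so the depth of the low rows is unknown. PIF4 measured 7.05 ± 0.804 FPKM (SD, n = 3) in pif4 and 10.1 ± 1.09 in the wild type at 22 °C, and 9.32 ± 1.61 and 17.4 ± 1.72 at 29 °C. BBX18 measured 18.0 ± 2.57 FPKM in the double mutant and 28.9 ± 1.37 in the wild type at 22 °C. At 29 °C BBX18 followed the replicate number more than the genotype, with 7.12 to 10.1 FPKM in replicate 1 and 51.3 to 76.2 in replicate 2. For this gene replicates 1 and 2 at 29 °C stood apart in all 3 genotypes. Results of the test are therefore also given with either replicate 1 or replicate 2 at 29 °C left out in all genotypes. BBX23 was listed at 0 in all 18 libraries and checks no label. Green and root tissue markers were present in every library. LHCB1.1, a light-harvesting antenna gene, ranged from 11060 to 19680 FPKM at 22 °C and from 718 to 1939 at 29 °C. RBCS1A, a Rubisco small subunit gene, ranged from 24230 to 40830 and from 10870 to 19900. The root gene PYK10 ranged from 1496 to 2304 FPKM at 22 °C and from 1413 to 2059 at 29 °C, the iron transporter gene IRT1 from 62.5 to 110.4 and from 2.29 to 15.5, and the root hair gene EXPA7 from 6.98 to 19.5 and from 8.44 to 32.2. RHS12, another root hair gene, ranged from 3.58 to 10.2 FPKM at 22 °C and from 2.55 to 12.01 at 29 °C. The part of these tissue genes in the results below was not tested, and in whole seedlings fewer cells of a type and less RNA per cell cannot be told apart.

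The summed FPKM of the mitochondrial rows in the wild type was 43.7, 25.7 and 40.03 at 22 °C and 118, 129.5 and 78.0 at 29 °C. In the double mutant it was 39.3, 47.5 and 48.2 at 22 °C and 98.1, 102 and 88.3 at 29 °C. In pif4 it was 43.6, 37.2 and 49.4 at 22 °C and 81.0, 91.3 and 104 at 29 °C. Every library at 29 °C lay above every library at 22 °C, with a gap from 49.4 to 78.0 between them. The group means went from 36.5 ± 9.51 to 108.5 ± 27.1 (SD, n = 3) in the wild type, 2.97 times higher. They went from 45.0 ± 4.95 to 96.0 ± 6.94 in the double mutant and from 43.4 ± 6.09 to 92.0 ± 11.3 in pif4, 2.13 and 2.12 times higher. Replicate 3 of the wild type was the lowest library at 29 °C and replicate 2 of the wild type the lowest at 22 °C. The mean ratio of the wild type ran from 2.59 to 3.39 with any 1 of its libraries left out. Since the members share a rule and not a test, this sum is a description and carries no p. As a share of all summed FPKM, the rows took 0.00283% to 0.00453% at 22 °C and 0.0104% to 0.0147% at 29 °C, and these shares did not overlap either.

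**Figure D1:**
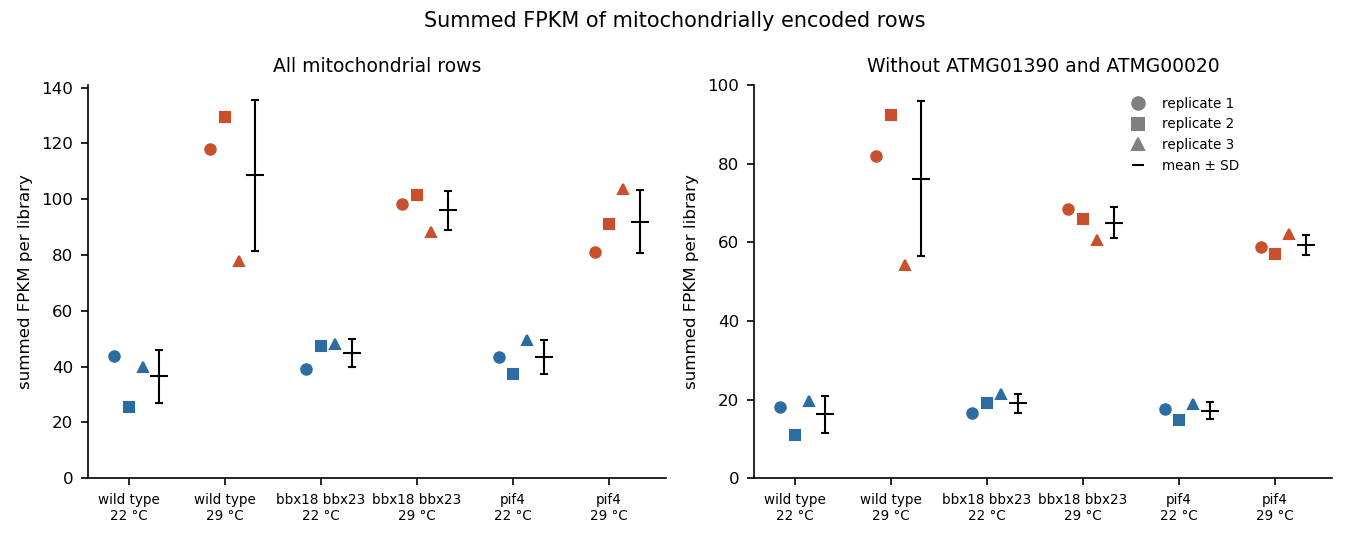
Summed FPKM per library (y axis, starting at 0) of the mitochondrially encoded rows in the 6 groups (x axis), for all 146 rows on the left and without ATMG01390 and ATMG00020 on the right; circles, squares and triangles are replicates 1, 2 and 3, and the black mark is the mean ± SD. In both panels all 29 °C libraries lie above all 22 °C libraries, and the mean goes from 41.6 to 98.8 FPKM on the left and from 17.5 to 66.8 on the right.

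Plastid transcripts gave another organelle to set beside the mitochondrial ones. The 133 chloroplast-encoded rows, with the prefix ATCG, summed to 330.2 ± 52.6 FPKM (SD, n = 9, from 244 to 406) at 22 °C and to 300.2 ± 69.1 (from 235 to 425) at 29 °C, and the temperatures overlapped. As a share of all FPKM they went the other way, from 0.0307% ± 0.00483 to 0.0353% ± 0.00612, again with overlap. More mitochondrial rows were also detected in the warm: 38 to 53 of the 146 stood above 0 per library at 22 °C and 58 to 67 at 29 °C, while the rows above 0 in the whole table numbered 22114 to 22509 and 22542 to 22947. Of the 106 mitochondrial rows above 0 in any library, 91 had a higher mean at 29 °C, against 50.77% of the 25422 such rows in the table. Among the 59 rows above 0 in 1 to 8 libraries, 23 were above 0 only at 29 °C and 5 only at 22 °C. The matching shares of the whole table were not computed, so these counts only describe the rows. These 59 rows had means of at most 0.202 FPKM and together held at most 6.86% of the mitochondrial sum of a library.

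Among the 47 rows described, 45 had a higher mean at 29 °C and 2, ATMG00020 and ATMG01120, a lower one. A row above 0 only at 29 °C could meet this rule, so the numbers describe these rows and not all 146. ATMG00170 and ATMG00620 had the same value in every library and are counted as 2 rows in all counts given here. The ratio of the 29 °C mean to the 22 °C mean had a median of 3.31 and ran from 0.866 for ATMG01120 to 10.5 for ATMG00560; it was 8.90 for ATMG01080. The ratio reached 2 in 36 of the 47 rows (76.6%), against 4.72% of the rows of the whole table above 0 in at least 9 libraries, whose median ratio was 1.00. All 9 libraries at 29 °C lay above all 9 at 22 °C for 14 of the 47 rows, against 3.66% of the 22503 rows of the table, and for 0 rows they lay below, against 5.78%. Within a genotype, 29 of the 47 had no overlap in the wild type (11.5% of the table), 31 in the double mutant (15.9%) and 20 in pif4 (11.1%), in each case with 29 °C above 22 °C, and 0 the other way, where 13.9%, 17.1% and 15.2% of the table did.

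The test was run with limma on log2(FPKM + 1), a scale that understates the change of low rows, over the 19116 genes that reached 1 FPKM in 3 or more libraries, with Benjamini-Hochberg adjustment over all of them at 0.05. It kept 25 mitochondrial rows. Of these, 19 had fewer than 3 libraries at 1 FPKM at 22 °C and passed only through their 29 °C libraries, and 1, ATMG01370, passed only with libraries of both temperatures, so the direction of the 19 was partly fixed by the filter and the counts below are not evidence by themselves. In the wild type 14 of the 25 rose and 0 fell, where 5.63% of all genes tested rose and 8.55% fell. In the double mutant 12 rose and 0 fell (5.52% and 8.06% of all genes), and in pif4 10 rose and 0 fell (4.67% and 8.49%). In the mean warm response of the 3 genotypes 19 rose and 0 fell, against 17.3% and 21.3% of all genes. The 9 rows that rose in each of the 3 genotypes were ATMG01080, ATMG00480, ATMG01190, ATMG00410, ATMG00590, ATMG00620, ATMG00690, ATMG00160 and ATMG00170. Of these, ATMG00620 and ATMG00170 are 1 measurement, and the share of all genes that rose in each genotype was not computed. Without each library of the contrast in turn, 11 of 14 calls held in every fit in the wild type, 7 of 12 in the double mutant, 8 of 10 in pif4 and 19 of 19 in the mean. Without replicate 1 at 29 °C in all genotypes 13, 10, 9 and 19 of these calls held, and without replicate 2 at 29 °C 11, 11, 9 and 18, in the same order; the call lost in the mean was ATMG01200. With only the libraries of a contrast in the fit, ATMG01090 and ATMG01190 were not called in the wild type (adjusted p = 0.0757 and 0.0643), ATMG01220 not in the double mutant (0.0646), and ATMG00410 and ATMG00480 not in pif4 (0.122 and 0.0504).

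**Figure D2:**
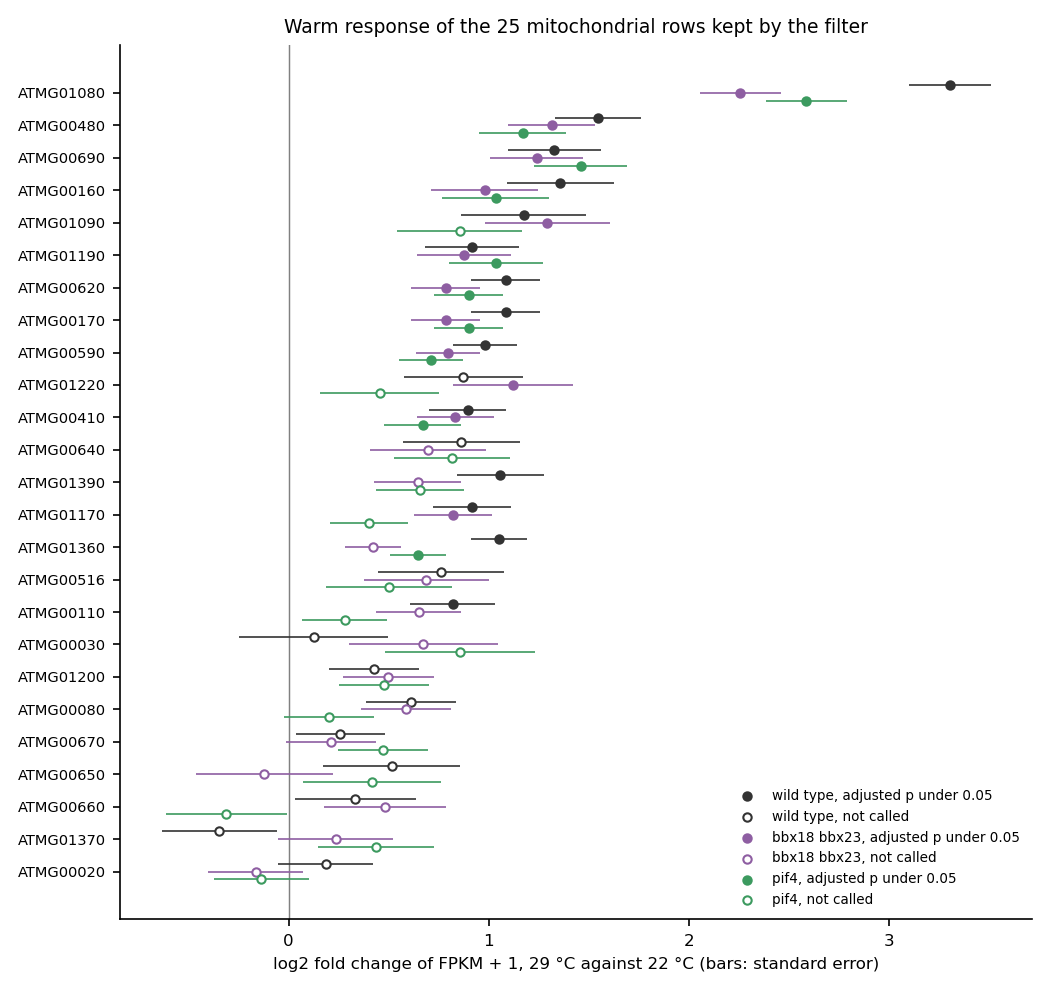
Change from 22 °C to 29 °C (x axis, log2 of FPKM + 1, bars are the standard error) of the 25 rows kept by the filter (y axis, ordered by the mean change) in the wild type, the double mutant and pif4; filled points passed the adjusted p of 0.05 and open points did not. ATMG01080 lies far to the right of all other rows in each genotype, and ATMG00020, at the bottom, lies near 0.

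The 2 rows of highest mean, ATMG01390 (14.5 FPKM over 18 libraries) and ATMG00020 (13.6 FPKM), carry no description in the sources used here. They are named by identifier only, and whether they encode a protein is not given there. ATMG01390 at 22 °C measured 10.7, 6.91 and 8.43 FPKM in wild-type libraries, 9.52, 12.1 and 11.2 in double-mutant libraries and 11.3, 9.35 and 13.4 in pif4 libraries. ATMG01390 at 29 °C measured 21.7, 22.2 and 13.9 FPKM, 17.3, 20.4 and 15.4, and 13.2, 19.8 and 23.3 in the same order. Replicate 1 of pif4 was the lowest library at 29 °C, just under the highest at 22 °C, so the temperatures overlapped by that 1 library. ATMG01390 rose in the wild type by a log2 change of 1.06 ± 0.22 (SE, adjusted p = 0.00361). In the double mutant and pif4 the log2 change was 0.64 (adjusted p = 0.0612) and 0.66 (adjusted p = 0.0578), which did not pass. Over the mean of the genotypes it rose by 0.79 ± 0.13 (SE, adjusted p = 0.000127).

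ATMG00020 at 22 °C measured 14.9, 7.88 and 11.9 FPKM in wild-type libraries, 13.1, 16.2 and 15.6 in double-mutant libraries and 14.6, 13 and 17.1 in pif4 libraries. ATMG00020 at 29 °C measured 14.4, 15 and 9.89 FPKM, 12.3, 15.4 and 12.2, and 8.94, 14.6 and 18.2 in the same order. The libraries ranged from 7.88 to 17.1 at 22 °C and from 8.94 to 18.2 at 29 °C, and only 1 warm library exceeded the highest cooler one. ATMG00020 had a mean log2 change of -0.04 ± 0.14 (SE, adjusted p = 0.853), with 0.19 (wild type), -0.16 (double mutant) and -0.14 (pif4). The difference did not exceed the spread between libraries, and the sign of the mean value turned to positive without replicate 1 at 29 °C in all genotypes (0.04). Together the 2 rows held 57.9% ± 3.17 (SD, n = 9) of the mitochondrial sum at 22 °C and 32.4% ± 4.28 at 29 °C. Without them the sum went from 17.5 ± 3.08 FPKM (SD, n = 9) to 66.8 ± 12.6, and at 29 °C it was 4.69 (wild type), 3.41 (double mutant) and 3.46 (pif4) times that at 22 °C.

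The ATP synthase makes ATP from the proton gradient across the inner membrane. In the reference notes 5 rows are paired with its subunits, and rows without a note may hold others. All 5 were kept by the filter, and 4 of them rose in each genotype, of which ATMG01080 was also called in each genotype when only the libraries of a contrast were fitted. The other rows that rose in each genotype, ATMG00480, ATMG01190 and ATMG00410, reached 1 FPKM in no library at 22 °C. They passed the filter only through 29 °C, which partly fixed their direction. ATMG01080 is annotated as subunit 9 of the F0 sector, the part that forms the rotating membrane ring. ATMG01080 at 22 °C measured 2.12, 1.7 and 1.02 FPKM in wild-type libraries, 2.67, 3.91 and 3.02 in double-mutant libraries and 1.89, 2.6 and 1.93 in pif4 libraries. ATMG01080 at 29 °C measured 25.3, 31.6 and 18.1 FPKM, 17, 22.5 and 17.7, and 16.2, 16.5 and 20.9 in the same order. The highest value at 22 °C was 3.91 and the lowest at 29 °C 16.2, the widest gap among the members kept. Its mean went from 2.32 ± 0.843 to 20.6 ± 5.14 FPKM (SD, n = 9). The log2 change was 3.30 ± 0.20 (SE, adjusted p = 4.9e-08) for the wild type. It was 2.26 ± 0.20 (SE, adjusted p = 3.46e-06) for the double mutant and 2.59 ± 0.20 (SE, adjusted p = 9.41e-07) for pif4. At 22 °C it lay below ATMG00020 in every library, and at 29 °C it exceeded ATMG00020 in 9 of 9 libraries.

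ATMG01090 is annotated as a mitochondrial ATP synthase 9 row. ATMG01090 at 22 °C measured 1.34, 0.212 and 1.52 FPKM in wild-type libraries, 0.275, 0.919 and 1.04 in double-mutant libraries and 1.42, 0.597 and 1.53 in pif4 libraries. ATMG01090 at 29 °C measured 3.68, 4.96 and 1.94 FPKM, 3.71, 2.58 and 3.36, and 2.3, 4.23 and 2.36 in the same order. No library at 22 °C reached the lowest one at 29 °C, replicate 3 of the wild type. ATMG01090 rose by 1.17 ± 0.31 (SE, adjusted p = 0.018) in the wild type and 1.29 ± 0.31 (SE, adjusted p = 0.0108) in the double mutant, and had 0.85 ± 0.31 (SE, adjusted p = 0.0833) in pif4, which did not pass. The call was lost in the wild type without replicate 2 at 22 °C or replicate 1 or 2 at 29 °C, and in the double mutant without replicate 1 at 22 °C. ATMG00480 is annotated as subunit 8 of the F0 sector, and its values were the same as those of the chromosome 2 locus AT2G07707 in all 18 libraries. ATMG00480 at 22 °C measured 0.351, 0.425 and 0.402 FPKM in wild-type libraries, 0.209, 0.306 and 0.208 in double-mutant libraries and 0.576, 0.195 and 0.216 in pif4 libraries. ATMG00480 at 29 °C measured 3.61, 3.45 and 2.28 FPKM, 2.2, 2.29 and 1.78, and 0.901, 2.56 and 2.86 in the same order. Replicate 1 of pif4 was the lowest at 29 °C and still lay above all 9 libraries at 22 °C. Its log2 changes were 1.55 (wild type), 1.31 (double mutant) and 1.17 (pif4), with a mean of 1.34 ± 0.13 (SE, adjusted p = 4.98e-07).

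ATMG01190 is annotated as ATP synthase subunit 1. ATMG01190 at 22 °C measured 0.69, 0.405 and 0.437 FPKM in wild-type libraries, 0.242, 0.165 and 0.674 in double-mutant libraries and 0.38, 0.253 and 0.568 in pif4 libraries. ATMG01190 at 29 °C measured 2.02, 2.84 and 0.966 FPKM, 0.823, 1.88 and 1.86, and 2.2, 2.02 and 1.42 in the same order. The temperatures did not overlap, although replicate 1 of the double mutant (0.823) and replicate 3 of the wild type (0.966) at 29 °C came close to the highest value at 22 °C (0.690). Its log2 changes were 0.91 (wild type), 0.88 (double mutant) and 1.04 (pif4), and the mean change was 0.94 ± 0.14 (SE, adjusted p = 4.64e-05). The same 3 wild-type libraries each ended its call in the wild type when left out, and in the double mutant replicate 1 or 2 at 22 °C or replicate 2 or 3 at 29 °C did. ATMG00410 is annotated as ATPase subunit 6-1, part of the proton channel. ATMG00410 at 22 °C measured 0.565, 0 and 0.241 FPKM in wild-type libraries, 0.264, 0.283 and 0 in double-mutant libraries and 0, 0 and 0.295 in pif4 libraries. ATMG00410 at 29 °C measured 1.57, 1.23 and 1.18 FPKM, 1.06, 1.13 and 1.08, and 0.379, 0.697 and 1.22 in the same order. Values of 0 occurred at 22 °C in each genotype and at 29 °C in none, and replicate 1 of pif4 at 29 °C (0.379) lay below replicate 1 of the wild type at 22 °C (0.565). The log2 changes of ATMG00410 were 0.89 (wild type), 0.83 (double mutant) and 0.67 (pif4), each a rise by the test. The call in pif4 was lost without replicate 1 or 2 at 22 °C or replicate 2 or 3 at 29 °C.

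**Figure D3:**
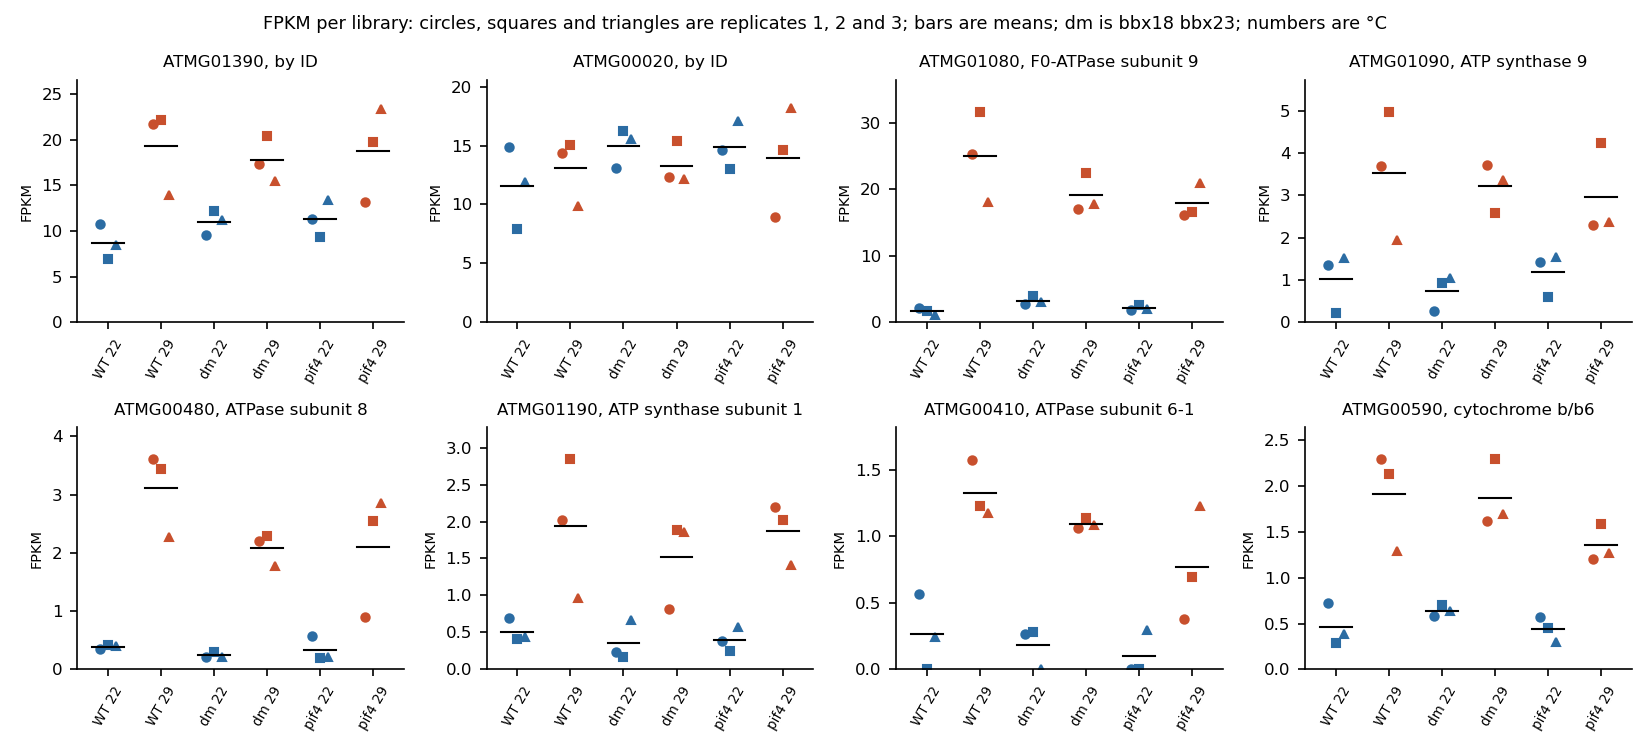
FPKM per library (y axes, starting at 0, each panel on its own scale) of 8 mitochondrial rows in the 6 groups (x axis; dm is the double mutant, 22 and 29 are °C), with replicates 1, 2 and 3 as circles, squares and triangles and group means as bars. ATMG01080 stands between 1.02 and 3.91 at 22 °C and between 16.2 and 31.6 at 29 °C, while the values of ATMG00020 overlap.

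Among the rows with a respiratory chain description, ATMG00590 is annotated as a cytochrome b/b6 protein. This description is separate from that of the apocytochrome b row, ATMG00220, and does not place ATMG00590 in complex III. The values of ATMG00590 equalled those of the chromosome 2 locus AT2G07718 in every library. ATMG00590 at 22 °C measured 0.728, 0.283 and 0.391 FPKM in wild-type libraries, 0.583, 0.707 and 0.637 in double-mutant libraries and 0.576, 0.448 and 0.295 in pif4 libraries. ATMG00590 at 29 °C measured 2.3, 2.13 and 1.29 FPKM, 1.62, 2.29 and 1.69, and 1.21, 1.59 and 1.27 in the same order. All 9 warm libraries lay above all 9 cooler ones. ATMG00590 rose by 0.98 ± 0.16 (SE, adjusted p = 0.000568) in the wild type, and by 0.80 and 0.71 in the mutants bbx18 bbx23 and pif4. The 2 cytochrome c oxidase rows named in the notes, of complex IV, did not reach the filter. ATMG01280, annotated as subunit II-like, averaged 0.141 ± 0.149 FPKM at 22 °C and 0.591 ± 0.223 at 29 °C (SD, n = 9). ATMG00730, annotated as subunit 3, averaged 0.0362 ± 0.0534 and 0.336 ± 0.146. Both rose in the mean warm response when every row above 0 in at least 9 libraries was tested, by 0.48 ± 0.08 (SE, adjusted p = 0.000322) and 0.36 ± 0.05 (adjusted p = 3.47e-05). The 3 NADH dehydrogenase rows named in the notes, of complex I, had means of 0.0632 to 0.0901 FPKM and were too rare to describe, as was the apocytochrome b row ATMG00220 (0.0408 FPKM). The 93 rows named in no note, 32 of them described, may hold further subunits, so these complexes are not covered in full.

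The rows that the notes name as cytochrome c biogenesis or ribosomal proteins were near the floor of detection. Rows without a note may hold other genes of these roles. ATMG00900, annotated as cytochrome c biogenesis, averaged 0.0259 ± 0.0365 FPKM at 22 °C and 0.0637 ± 0.0329 at 29 °C (SD, n = 9), and was not called with the wider filter (0.05 ± 0.03, SE, adjusted p = 0.198). ATMG00960, annotated as a cytochrome c assembly protein, was above 0 in 8 libraries and so is not among the 47 rows. It was listed at 0 in all 9 libraries at 22 °C and measured 0, 0.263 and 0.319 FPKM in wild-type libraries at 29 °C, 0.322, 0.35 and 0.231 in double-mutant libraries and 0.472, 1.07 and 0.449 in pif4 libraries. With no filter on low values it was called higher in pif4 and in the mean warm response. Of the ribosomal rows described, ATMG00980 (S12/S23 family) averaged 0.0541 ± 0.0975 and 0.391 ± 0.203 FPKM and ATMG01270 (S7) 0.14 ± 0.159 and 0.204 ± 0.226. With the wider filter ATMG00980 rose by 0.39 ± 0.08 (SE, adjusted p = 0.001), and ATMG01270 had 0.07 ± 0.10 (adjusted p = 0.641). The L5 and S4 ribosomal rows, ATMG00210 and ATMG00290, averaged 0.202 and 0.137 FPKM and were above 0 in fewer than 9 libraries. ATMG00560, annotated as an OB-fold nucleic acid-binding protein, averaged 0.0572 ± 0.054 FPKM at 22 °C and 0.6 ± 0.328 at 29 °C without overlap, and with the wider filter it rose by 0.58 ± 0.08 (SE, adjusted p = 3.01e-05). That wider test called 32 of the 47 rows described in the mean warm response, all higher, where 16.1% of 22503 rows were higher and 18.9% lower. It called 24 in the wild type, 18 in bbx18 bbx23 and 11 in pif4, all higher, where 4.94%, 4.87% and 4.09% of rows were higher and 7.16%, 6.79% and 7.16% lower.

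Of the rows known here by identifier only, ATMG00690, ATMG00160 and ATMG00170 rose in each genotype, as did ATMG00620, annotated as an unknown protein. ATMG00690 at 22 °C measured 1.41, 0.162 and 0.976 FPKM in wild-type libraries, 0.924, 0.86 and 0.955 in double-mutant libraries and 1.02, 0.735 and 0.648 in pif4 libraries. ATMG00690 at 29 °C measured 4.04, 3.95 and 2.5 FPKM, 4.3, 3.61 and 2.77, and 3.93, 3.06 and 4.99 in the same order. No warm library fell within the range at 22 °C. ATMG00690 rose by 1.33 (wild type), 1.24 (double mutant) and 1.46 (pif4), and by 1.34 ± 0.13 (SE, adjusted p = 1.07e-06) in their mean. ATMG00160 at 22 °C measured 0.452, 0.364 and 0.965 FPKM in wild-type libraries, 0.902, 0.848 and 0.649 in double-mutant libraries and 1.12, 0.333 and 0.443 in pif4 libraries. ATMG00160 at 29 °C measured 3.17, 5.42 and 1.45 FPKM, 2.52, 2.63 and 2.46, and 2.87, 1.86 and 2.15 in the same order. At 29 °C replicate 2 of the wild type was the highest library and replicate 3 the lowest, still above all cooler ones. ATMG00160 rose by 1.12 ± 0.15 (SE, adjusted p = 2.98e-05) in the mean. Its call in the double mutant was lost without any 1 of the 6 libraries, and that in pif4 without replicate 2 or 3 at 22 °C or replicate 1 at 29 °C. ATMG00170 at 22 °C measured 0, 0.091 and 0.092 FPKM in wild-type libraries, 0.165, 0.094 and 0.171 in double-mutant libraries and 0.098, 0.161 and 0.261 in pif4 libraries. ATMG00170 at 29 °C measured 1.91, 1.29 and 0.697 FPKM, 0.984, 0.903 and 1.02, and 1.72, 0.985 and 0.929 in the same order. The lowest library at 29 °C stood at 0.697 FPKM and the highest at 22 °C at 0.261. ATMG00620 had the same value as ATMG00170 in all 18 libraries, so the pair is 1 measurement, with a log2 change of 0.92 ± 0.10 (SE, adjusted p = 2.47e-06).

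ATMG01360, ATMG01170, ATMG00110 and ATMG01220 rose in 1 or 2 genotypes by the test. ATMG01360 at 22 °C measured 0.113, 0.121 and 0.138 FPKM in wild-type libraries, 0.308, 0.613 and 0.257 in double-mutant libraries and 0.319, 0.287 and 0.193 in pif4 libraries. ATMG01360 at 29 °C measured 1.74, 1.42 and 0.907 FPKM, 0.85, 0.875 and 0.842, and 1.03, 0.827 and 1.09 in the same order. ATMG01360 did not overlap between temperatures and rose by 1.05 ± 0.14 (SE, adjusted p = 0.000104) in the wild type and 0.65 in pif4, with 0.42 ± 0.14 (SE, adjusted p = 0.0562) in the double mutant. ATMG01170 at 22 °C measured 0.063, 0.071 and 0.218 FPKM in wild-type libraries, 0.066, 0.059 and 0.147 in double-mutant libraries and 0.257, 0.149 and 0.534 in pif4 libraries. ATMG01170 at 29 °C measured 1.2, 1.71 and 0.563 FPKM, 0.904, 1.37 and 0.576, and 0.657, 0.995 and 0.541 in the same order. Its temperatures did not overlap either, though replicate 3 of pif4 at 22 °C (0.534) nearly reached the lowest warm library (0.541). ATMG01170 rose by 0.92 in the wild type and 0.82 in the double mutant and had 0.40 ± 0.20 (SE, adjusted p = 0.205) in pif4. The call in the double mutant was lost without replicate 2 at 29 °C.

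ATMG00110 at 22 °C measured 0, 0.101 and 0.437 FPKM in wild-type libraries, 0.748, 0.318 and 0.196 in double-mutant libraries and 0.356, 0.276 and 0.398 in pif4 libraries. ATMG00110 at 29 °C measured 1.31, 1.03 and 0.857 FPKM, 2, 0.93 and 0.842, and 1.05, 0.567 and 0.347 in the same order. Replicates 2 and 3 of pif4 at 29 °C lay within the range at 22 °C. ATMG00110 rose in the wild type by 0.82 ± 0.21 (SE, adjusted p = 0.0155), a call lost without replicate 1 or 2 at 22 °C or replicate 1 at 29 °C. ATMG01220 is annotated as an unknown protein. ATMG01220 at 22 °C measured 0.602, 0.496 and 0.551 FPKM in wild-type libraries, 0, 0.789 and 0.245 in double-mutant libraries and 0.662, 0 and 0.489 in pif4 libraries. ATMG01220 at 29 °C measured 1.16, 2.81 and 1.77 FPKM, 3.78, 1.06 and 1.33, and 0.649, 1.07 and 0.867 in the same order. Replicate 1 of the double mutant at 29 °C, at 3.78, was the highest, followed by replicate 2 of the wild type at 2.81. ATMG01220 rose in the double mutant by 1.12 ± 0.30 (SE, adjusted p = 0.0193), a call lost without replicate 1 or 3 at 22 °C or replicate 1 at 29 °C.

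ATMG00640, ATMG00516, ATMG01200 and ATMG00080 rose in the mean warm response of the genotypes and in no single genotype by the test. ATMG00640 at 22 °C measured 0.665, 0.111 and 0.724 FPKM in wild-type libraries, 0.418, 1.38 and 0.747 in double-mutant libraries and 0.687, 0.896 and 0.114 in pif4 libraries. ATMG00640 at 29 °C measured 2.46, 1.62 and 1.12 FPKM, 1.49, 2.43 and 1.94, and 0.868, 1.6 and 3 in the same order. Its temperatures overlapped through replicate 2 of both mutants at 22 °C. ATMG00516 at 22 °C measured 0, 0.283 and 0.632 FPKM in wild-type libraries, 0, 0 and 0.269 in double-mutant libraries and 0, 0.264 and 0.557 in pif4 libraries. ATMG00516 at 29 °C measured 1.09, 2.97 and 0.227 FPKM, 0.456, 0.737 and 1.1, and 0.918, 0.669 and 0.745 in the same order. Replicate 2 of the wild type at 29 °C, at 2.97, was far above the other libraries, and replicate 3 of that group was the lowest warm library. ATMG01200 at 22 °C measured 0.577, 0.152 and 0.379 FPKM in wild-type libraries, 0.319, 0.189 and 0.331 in double-mutant libraries and 0.319, 0.08 and 0.455 in pif4 libraries. ATMG01200 at 29 °C measured 0.889, 1.53 and 0.277 FPKM, 0.832, 1 and 0.603, and 1.19, 0.865 and 0.367 in the same order. Replicate 3 was the lowest warm library in each genotype. ATMG00080 at 22 °C measured 0, 0 and 0.264 FPKM in wild-type libraries, 0.341, 0.13 and 0.122 in double-mutant libraries and 0.319, 0.115 and 0.602 in pif4 libraries. ATMG00080 at 29 °C measured 0.685, 0.526 and 0.756 FPKM, 1.06, 1.03 and 0.372, and 1.27, 0.195 and 0.316 in the same order. The highest cooler library, replicate 3 of pif4, exceeded 4 of the 9 warm libraries. The mean log2 changes were 0.79 ± 0.17 (SE, adjusted p = 0.00145) for ATMG00640 and 0.65 ± 0.18 (SE, adjusted p = 0.00946) for ATMG00516. They were 0.47 ± 0.13 (SE, adjusted p = 0.0095) for ATMG01200 and 0.47 ± 0.13 (SE, adjusted p = 0.00982) for ATMG00080.

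Beside ATMG00020, 5 rows kept by the filter did not pass in the mean warm response. ATMG00660 at 22 °C measured 2.51, 0.779 and 1.56 FPKM in wild-type libraries, 1.94, 0.99 and 0.612 in double-mutant libraries and 0.834, 2.15 and 1.72 in pif4 libraries. ATMG00660 at 29 °C measured 1.34, 3.56 and 1.99 FPKM, 1.77, 1.9 and 2.19, and 1.75, 0.762 and 0.694 in the same order. All but 1 warm library lay under the highest at 22 °C. ATMG00670 at 22 °C measured 1.02, 0.334 and 0.827 FPKM in wild-type libraries, 0.715, 0.577 and 1.62 in double-mutant libraries and 0.552, 0.62 and 0.273 in pif4 libraries. ATMG00670 at 29 °C measured 1.41, 1.19 and 0.596 FPKM, 0.823, 1.29 and 1.64, and 0.91, 1.4 and 0.857 in the same order. Replicate 3 of the double mutant was the highest library at each temperature. ATMG00030 at 22 °C measured 0.339, 0.273 and 0.609 FPKM in wild-type libraries, 0, 0 and 2.12 in double-mutant libraries and 0, 0 and 0 in pif4 libraries. ATMG00030 at 29 °C measured 0.266, 0.954 and 0.437 FPKM, 2.43, 0.479 and 1.49, and 1.42, 0.428 and 0.714 in the same order. Of the cooler libraries 5 were listed at 0, and replicate 3 of the double mutant, at 2.12, exceeded 8 of the 9 warm ones. ATMG00650 at 22 °C measured 0, 0 and 0.701 FPKM in wild-type libraries, 0.297, 0.99 and 0 in double-mutant libraries and 0.282, 0 and 0 in pif4 libraries. ATMG00650 at 29 °C measured 0.603, 0.545 and 1 FPKM, 1, 0 and 0, and 1.41, 0 and 0.265 in the same order. Zeros occurred at both temperatures. ATMG01370 at 22 °C measured 0.627, 0.506 and 0.862 FPKM in wild-type libraries, 0.242, 0 and 1.24 in double-mutant libraries and 0.233, 0.471 and 0 in pif4 libraries. ATMG01370 at 29 °C measured 0, 0.224 and 0.815 FPKM, 1.24, 0.442 and 0.399, and 0.337, 1.01 and 0.673 in the same order. The temperatures overlapped here too. The mean log2 changes were 0.17 ± 0.17 (SE, adjusted p = 0.482) for ATMG00660 and 0.31 ± 0.13 (SE, adjusted p = 0.0659) for ATMG00670. They were 0.55 ± 0.22 (SE, adjusted p = 0.0534) for ATMG00030, 0.27 ± 0.20 (SE, adjusted p = 0.306) for ATMG00650 and 0.11 ± 0.17 (SE, adjusted p = 0.642) for ATMG01370. ATMG00030 passed with a pseudocount of 0.1 (adjusted p = 0.0108), with size factors (0.0484) and with the replicate block (0.0498, or 0.0324 within temperature). It also passed without replicate 3 of the double mutant at 22 °C (0.00205), without replicate 2 at 29 °C of the double mutant (0.0211) or of pif4 (0.0458), and without replicate 2 at 29 °C in all genotypes (0.033). Over all its alternatives the adjusted p ran from 0.00205 to 0.147. ATMG01120, the other row with a lower mean at 29 °C, averaged 0.373 ± 0.365 FPKM at 22 °C and 0.323 ± 0.459 at 29 °C (SD, n = 9) and was not kept.

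The comparison of each mutant with the wild type asks whether the mitochondrial rows depend on BBX18 and BBX23 or on PIF4. At 22 °C the summed FPKM was 1.23 times the wild-type mean in the double mutant and 1.19 times in pif4, and at 29 °C 0.885 and 0.848 times, with overlapping libraries in each case. By limma 0 of the 25 rows passed in any of these comparisons, where 0.0262% of all genes passed for the double mutant at 22 °C, 0.0157% at 29 °C, 0.0209% for pif4 at 22 °C and 0.136% at 29 °C. At an unadjusted p under 0.05 there were 2, 1, 0 and 3 rows in that order, and 249, 211, 619 and 630 of all 19116 genes. At 22 °C these were ATMG01080, with 0.70 ± 0.20 (SE, adjusted p = 1) and ATMG01360, with 0.30 ± 0.14 (adjusted p = 1), in the double mutant. At 29 °C the double mutant had ATMG01360, with -0.33 ± 0.14 (SE, adjusted p = 1), and pif4 had ATMG00410, ATMG00660 and ATMG01080, with -0.42 ± 0.19, -0.65 ± 0.30 and -0.44 ± 0.20 (SE, adjusted p = 1 for each). Without overlap between the libraries, 7 of the 47 rows described were above the wild type and 1 below in the double mutant at 22 °C, where 2.82% and 2.98% of the table were. The counts were 1 and 3 in the double mutant at 29 °C (3.22% and 1.89%), 5 and 3 in pif4 at 22 °C (5.39% and 3.99%), and 0 and 2 in pif4 at 29 °C (3.43% and 2.66%).

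The warm responses themselves were compared by the difference of differences. Both differences use the same wild-type libraries. Of the 25 rows 0 were called for the double mutant, as for 0% of all genes, and 0 for pif4, where 0.0157% of genes were. At an unadjusted p under 0.05 there were 2 rows and 1 row, and 133 and 248 of all 19116 genes. The rise of ATMG01080 differed from that of the wild type by -1.05 ± 0.29 (SE, unadjusted p = 0.00222, adjusted p = 1.00) in the double mutant and by -0.72 ± 0.29 (unadjusted p = 0.0242, adjusted p = 1) in pif4. That of ATMG01360 differed by -0.63 ± 0.20 (unadjusted p = 0.00585, adjusted p = 1.00) in the double mutant. The SE of such a difference was 0.20 to 0.53 among the 25 rows, and a missing call does not show that the genotypes respond alike.

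Which genome a read came from is uncertain where both hold the same sequence, and 53 of the 146 identifiers are named in the reference notes of nuclear loci, all 55 of them in chromosome 2. Among the rows described, 4 had the same FPKM as a chromosome 2 locus in all 18 libraries: ATMG00480 and AT2G07707, ATMG00590 and AT2G07718, ATMG00980 and AT2G07675, and ATMG00900 and AT2G07771. Another 3 described rows matched their partner in each library in which the nuclear locus stood above 0: ATMG01280 and AT2G07695 in 4 libraries, and ATMG00620 and AT2G07722, and ATMG01050 and AT2G07672, in 3 each. The remaining partners of described rows differed from them in most or all libraries, in part through partners listed at 0. AT2G07777, the partner of ATMG01090, was at 0 in all 18 libraries. AT2G07681, a further partner of ATMG00900, stood above 0 in 1 library. AT2G07671, the chromosome 2 partner of ATMG01080, averaged 1.68 ± 0.485 FPKM (SD, n = 9, from 0.779 to 2.22) at 22 °C and 15.5 ± 3.86 (from 11.2 to 21.1) at 29 °C, and rose by 2.62 ± 0.13 (SE, adjusted p = 4.72e-10) in the mean warm response. AT2G07698, the partner of ATMG01190, averaged 0.636 ± 0.311 and 3.20 ± 0.662 FPKM and rose by 1.37 ± 0.10 (SE, adjusted p = 5.26e-08). AT2G07715, the partner of ATMG00560, went the other way, from 1.99 ± 0.530 to 0.982 ± 0.264 FPKM, and fell by 0.58 on the log2 scale (SE 0.11, adjusted p = 0.000458). AT2G07777, AT2G07741 and AT2G07798, partners of ATMG01090, ATMG00410 and ATMG01220, averaged 0, 0.168 and 0.0697 FPKM over the 18 libraries, under their mitochondrial rows. Of the 55 nuclear loci so paired 12 were tested, and in the mean warm response 9 rose and 1 fell, where 17.3% and 21.3% of all genes did. Of those that rose, all but AT2G07671 had fewer than 3 libraries at 1 FPKM at 22 °C, so the filter partly fixed their direction. AT2G07707 and AT2G07718 also repeat the values of ATMG00480 and ATMG00590, and the count is not evidence by itself.

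**Figure D4:**
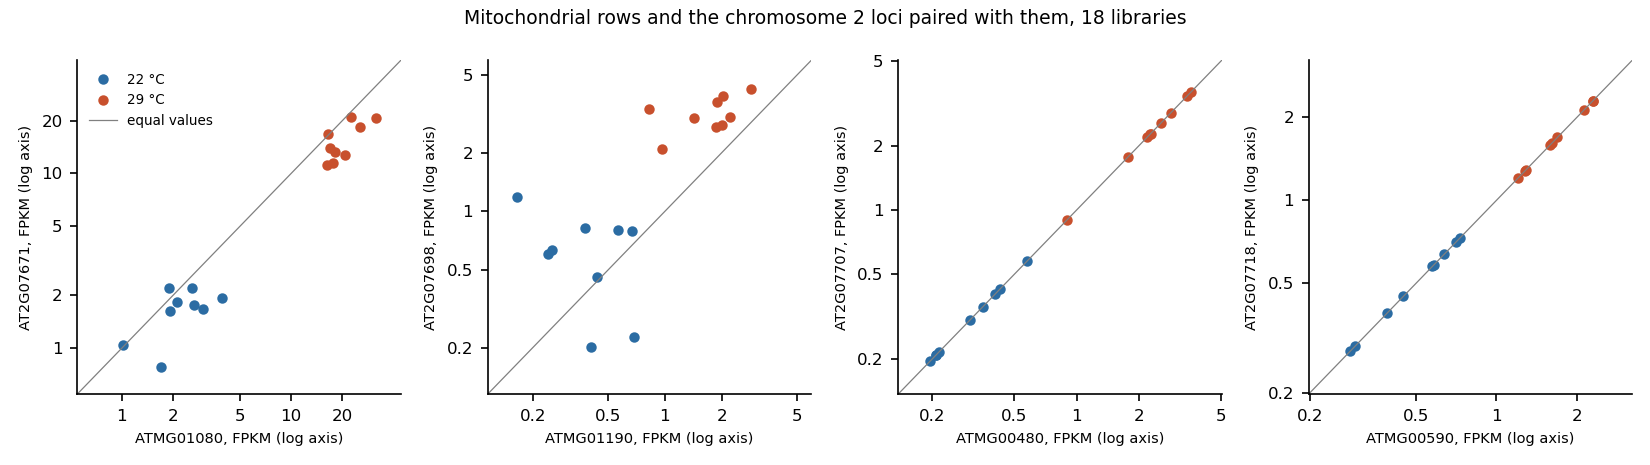
FPKM of 4 mitochondrial rows (x axes, log scale) and of the chromosome 2 loci paired with them (y axes, log scale) in the 18 libraries, blue at 22 °C and red at 29 °C; the grey line marks equal values. ATMG00480 and ATMG00590 lie on the line in every library, and for the partners AT2G07671 and AT2G07698 of the other 2 rows the 29 °C libraries stand higher on both axes.

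The sum was also taken without the paired rows. The 93 mitochondrial rows named in no such note, 32 of them described, summed to 34.3 ± 6.23 FPKM (SD, n = 9, from 20.3 to 40.6) at 22 °C and to 60.3 ± 8.98 (from 45.1 to 72.8) at 29 °C, without overlap. The 53 named rows summed to 7.28 ± 1.18 FPKM (from 5.40 to 8.78) and 38.6 ± 8.74 (from 29.7 to 56.7). Without the named rows the sum at 29 °C was 2.10 (wild type), 1.60 (double mutant) and 1.64 (pif4) times that at 22 °C. Rows by identifier such as ATMG00690 and ATMG00160 belong to the unnamed set, and an unnamed row may still share reads with a locus whose notes do not name it.

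The nuclear genes of the same complexes were set beside the mitochondrial rows. Over 9 lists with 80 nuclear genes of mitochondrial proteins, 74 were tested, and in the mean warm response 13 rose and 26 fell, with a median log2 change of -0.17, against -0.01 over all genes tested. Of all genes 17.3% rose and 21.3% fell in that contrast, so the share of the lists that rose was near the background. In the wild type alone 1 rose and 6 fell, where 5.63% and 8.55% of all genes did, and the share that fell was near the background. Of 8 nuclear ATP synthase subunit genes 0 rose and 5 fell. AT5G13450 (ATP5) went from 227 ± 18.3 to 167 ± 11.3 FPKM (SD, n = 9), a log2 change of -0.43 ± 0.06 (SE, adjusted p = 6.56e-05). AT5G08690, AT2G33040 (ATP3) and AT5G08680 changed by -0.56 ± 0.10 (SE, adjusted p = 0.000248), -0.48 ± 0.11 (SE, adjusted p = 0.00347) and -0.40 ± 0.10 (SE, adjusted p = 0.00368). AT5G08690 and AT5G08680 belong to a group of near-identical copies with AT5G08670, so their shares of the reads are uncertain.

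In complex I, the NADH dehydrogenase, 1 of 15 nuclear subunit genes rose and 8 fell, where 17.3% and 21.3% of all genes did, the background for the complexes that follow too. GAMMA CA2 (AT1G47260), AT5G52840, GAMMA CA3 (AT5G66510) and AT4G02580 had the smallest p and changed by -0.44, -0.46, -0.41 and -0.41 on the log2 scale, with adjusted p from 3.19e-05 to 0.00138. In complex II, the succinate dehydrogenase, 0 of 5 rose and 3 fell: SDH1-1 (AT5G66760) by -0.48 ± 0.06 (SE, adjusted p = 1.34e-05), SDH3-1 (AT5G09600) by -0.24 and SDH2-1 (AT3G27380) by -0.24. In complex III 0 of 7 rose and 4 fell, AT3G27240 by -0.52 ± 0.11 (SE, adjusted p = 0.00176), MPPBETA (AT3G02090) by -0.35, AT5G13430 by -0.38 and AT1G51980 by -0.23. Among 7 genes of complex IV and cytochrome c 0 rose and 2 fell, AT3G15640 by -0.49 and COX6B (AT1G22450) by -0.22, a count near the background. Of the alternative oxidases and alternative NAD(P)H dehydrogenases, which bypass the proton-pumping complexes, 1 of 7 tested rose and 3 fell. NDA1 (AT1G07180), an alternative NADH dehydrogenase gene, went from 80.3 ± 9.7 to 21.2 ± 13 FPKM (SD, n = 9), a change of -2.10 ± 0.29 (SE, adjusted p = 3.38e-05), and AOX1D (AT1G32350) rose by 1.07 ± 0.27 (SE, adjusted p = 0.0047). NDC1 (AT5G08740) and NDB1 (AT4G28220) changed by -0.63 and -0.48. AOX1A (AT3G22370), the main stress-induced alternative oxidase gene, had 0.18 ± 0.18 (SE, adjusted p = 0.441).

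**Figure D5:**
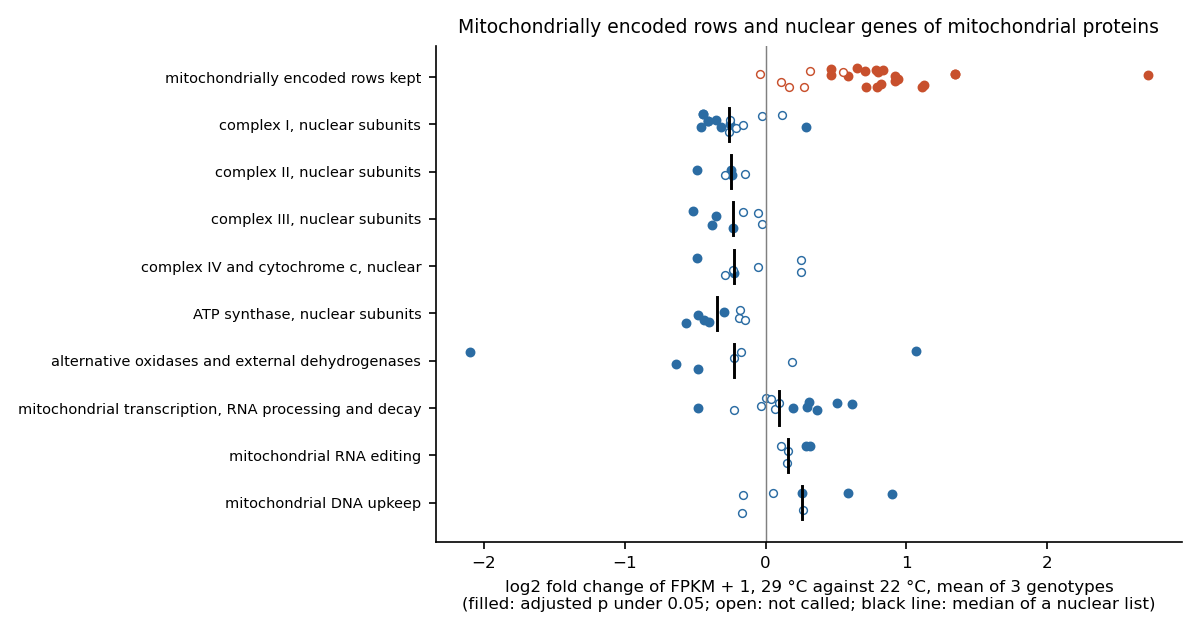
Change from 22 °C to 29 °C in the mean of the 3 genotypes (x axis, log2 of FPKM + 1) for the 25 mitochondrially encoded rows kept (red) and for the nuclear genes of 9 lists (blue); filled points passed the adjusted p of 0.05, open points did not, and the black line is the median of a nuclear list. The mitochondrial rows reach 2.71, and most called genes of the 5 complexes lie left of 0.

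Nuclear genes that act on mitochondrial DNA and RNA rose more often than they fell in the mean warm response. In the wild type alone, 1 gene of all the lists rose. The counts below are from the mean warm response, where 17.3% of all genes rose and 21.3% fell. Of 7 genes of mitochondrial DNA upkeep 3 rose and 0 fell. WHY2 (AT1G71260, listed as ATWHY2), a single-stranded DNA-binding protein of mitochondria, went from 32.1 ± 4.09 to 60.4 ± 5.08 FPKM (SD, n = 9), a rise of 0.90 ± 0.08 (SE, adjusted p = 4.35e-07). Of the organellar DNA polymerase genes, POLGAMMA1 (AT3G20540) rose by 0.59 ± 0.16 (SE, adjusted p = 0.00712) and POLGAMMA2 (AT1G50840) had -0.17 ± 0.12 (SE, adjusted p = 0.282). MSH1 (AT3G24320), which guards against recombination between repeats of organelle DNA, rose by 0.26 ± 0.09 (SE, adjusted p = 0.0259). Of 13 tested genes of transcription, RNA processing and decay 6 rose and 1 fell. AT5G15700, annotated as a DNA/RNA polymerase superfamily protein, went from 0.916 ± 0.175 to 1.74 ± 0.363 FPKM, a rise of 0.51 ± 0.09 (SE, adjusted p = 0.000188). MGP3 (AT1G68990), a phage-type RNA polymerase of mitochondria, rose by 0.31 ± 0.09 (SE, adjusted p = 0.0144). AT5G46920 and WTF9 (AT2G39120), of the intron splicing group, rose by 0.61 and 0.36. PRORP1 (AT2G32230), the protein-only RNase P, changed by -0.48 ± 0.06 (SE, adjusted p = 1.18e-05). Of 5 tested RNA editing genes 2 rose, MORF1 (AT4G20020) by 0.32 ± 0.08 (SE, adjusted p = 0.00597) and MEF1 (AT5G52630) by 0.29, and 0 fell. The lists were compared by these counts only, and no test of a difference between lists was made.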

How the data were processed

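Seedling RNA was isolated with Trizol, and 1 µg entered the TruSeq RNA kit, per the labels' protocols. The authors deposited 1 table of FPKM per gene for 18 libraries, a unit named in the labels; 0 columns were left without a sample. Bowtie 0.12.2 and mm8 are named in the submitters' processing notes. The rows are Arabidopsis loci while mm8 is a mouse build, so the genome, the annotation, the counter, the depth and the treatment of reads with several matches count as not given in the sources used here.

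Expression was taken to log2(FPKM + 1), and the 19116 genes that reached 1 FPKM in 3 or more libraries were fitted with limma 3.58.1 (R 4.3.3), with 1 coefficient per group, all 18 libraries and a variance trend. The 10 contrasts, 2-sided, were Benjamini-Hochberg adjusted over all genes of a contrast at 0.05. The method was tested on simulated data. The members, nuclear lists, contrasts and most alternatives were chosen with earlier results of these data known. Values per library are given for the 12 rows of highest mean and each row kept or called; of the nuclear lists, up to 4 called genes of smallest p are named, and AOX1A and the polymerase genes whatever their values. Protein descriptions of ATMG identifiers come from notes of nuclear loci in the TAIR10.1 reference annotation, used for names only.

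Replicate numbers are shared between groups in the labels, which do not say that they mark a pairing. Deviations from the group means correlated over 0.1 in every pair for the double mutant and the wild type at 29 °C (0.702, 0.732 and 0.239) and for pif4 and the wild type at 22 °C (0.502, 0.491 and 0.604). There 0 members were called with or without the block for replicate number.

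Alternatives were a pseudocount of 0.1, no filter, the filter of above 0 in at least 9 libraries, size factors, only the libraries compared, no trend, blocks for replicate number, each library left out, and replicate 1 or 2 at 29 °C left out in all genotypes. Fits without libraries kept the genes of the main test, a choice made after first counts were seen. The sums without the 2 highest rows and without the rows named in the notes were added after seeing the data. Figures were drawn with matplotlib 3.10.9.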

Additional observations from a re-analysis of the deposited data

How the results depend on the processing

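The direction of the summed FPKM between temperatures was the same under each alternative run. The ratio of the 29 °C to the 22 °C mean was 2.97, 2.13 and 2.12 in the wild type, the double mutant and pif4. It was 3.67 (wild type), 2.83 (double mutant) and 2.72 (pif4) as a share of all FPKM, 4.69, 3.41 and 3.46 without the 2 rows of highest mean, and 1.60 and 1.64 in the double mutant and pif4 without the rows named in the reference notes. With each library left out it ran from 2.59 to 3.39 in the wild type, from 2.01 to 2.22 in the double mutant and from 1.98 to 2.28 in pif4. Members called in the warm response of the wild type were 14, but 25 with no filter and 24 with the filter of above 0 in at least 9 libraries; in the mean of the genotypes they were 19, but 37 and 32, since more rows were then tested. Without each library in turn the counts ran from 11 to 17 in the wild type, 9 to 11 in the double mutant, 8 to 11 in pif4 and 19 to 21 in the mean. The counts for the mutants were 0 in each alternative. The mean change of ATMG00020, -0.04, turned to 0.0424 without replicate 1 at 29 °C in all genotypes and ran from -0.1147 to 0.051 with 1 library left out, turning positive where wild-type replicate 1 at 22 °C (0.0254), wild-type replicate 3 at 29 °C (0.0207) or pif4 replicate 1 at 29 °C was left out; the cause was not tested.

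With a block for replicate number, members called were 14, 13, 10 and 20 in the wild type, the double mutant, pif4 and the mean, and with the block within temperature 15, 15, 14 and 20. For the warm responses, and the 2 other mutant comparisons, the numbers did not pair the libraries, and not every library correlated best with its own number. The sum without rows having a close copy outside the mitochondrial genome was not run, since no mitochondrial transcripts were used here. Values under 1 FPKM rest on few reads of unknown number, so zeros at 22 °C are limits of detection.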
